A study of Rattus norvegicus with 30 samples.

Results

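Livers of Wistar rats sampled 24 hours after 70% partial hepatectomy (PH70, 6 rats) were compared with livers of rats that had a sham operation (sham, 6 rats), 12 of the 30 arrays in the series. The arrays were chosen by the treatment stated for each rat. The other rats had 30% partial hepatectomy (PH30), 90% partial hepatectomy (PH90) or no operation (unoperated), with 6 rats in each group, and are used here where PH70 is set against them. All rats were wild type, 1 array was run per rat, and the remaining liver was snap-frozen when the rat was killed. No age is used here.

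Partial hepatectomy removes whole lobes, and the hepatocytes of the remaining lobes, which rarely divide in the adult liver, enter the cell cycle almost together. Cytokines such as interleukin 6 and growth factors acting through the receptors MET and EGFR are known to carry hepatocytes through G1, cyclin D1 marks their commitment, and DNA synthesis in the rat peaks about a day after surgery. Mitosis follows within hours, driven by cyclin B and CDK1, while the remnant has to keep up the synthesis of plasma proteins, bile and glucose.

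The values are log2 intensities from Affymetrix Rat Gene 2.0 ST arrays, each centred on its median over all 30 arrays, so 0 is the middle of the series and not an absence of RNA. Differences between rats are kept, but levels are lost, so the labelled tissue could not be checked against marker levels, and values of different genes are not compared as levels. Values of a gene are given as the lowest, median and highest of the 6 rats of each group. The tests are from limma, fitted to 18166 genes on all 30 arrays, with Benjamini-Hochberg adjustment and a gene called at an adjusted p below 0.05. A fold change is PH70 minus sham on the log2 scale with its standard error, and n = 6 rats in each group throughout. In bulk liver, fewer cells of a type and less RNA per cell cannot be told apart.

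Of the 18166 genes, 1906 (10.5%) were higher and 1480 (8.15%) lower in PH70 than in sham livers. Counts of called list members are to be read against these shares. The median change over all genes was -0.01. Of the called genes, 224 were at least 2-fold higher and 67 at least 2-fold lower. The lowest PH70 rat lay above the highest sham rat for 792 genes (4.36%), and the highest PH70 rat lay below the lowest sham rat for 541 genes (2.98%).

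One PH70 liver stood apart from the other 5. The mean correlation of rat 139 with the other PH70 rats over all genes was -0.11, and with the sham rats 0.20, whereas each of the other 5 PH70 rats had a mean of 0.49 to 0.55 with its own group. These correlations run across genes, which are not independent replicates. Without rat 139, 2199 genes (12.1%) were higher and 1860 (10.2%) lower. Whether this liver was resected as labelled was not tested. Many results that turn on it are given with and without it, though some counts and gene values are given only with it. In the PH30 group, rat 95 correlated at 0.59 with the PH70 rats other than 139 and at -0.11 with its own group. It is in no group mean of PH70 against sham, but it adds to the spread that all comparisons share, and without both rats 2315 genes were higher and 1986 lower than in sham livers.

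**Figure D1:**
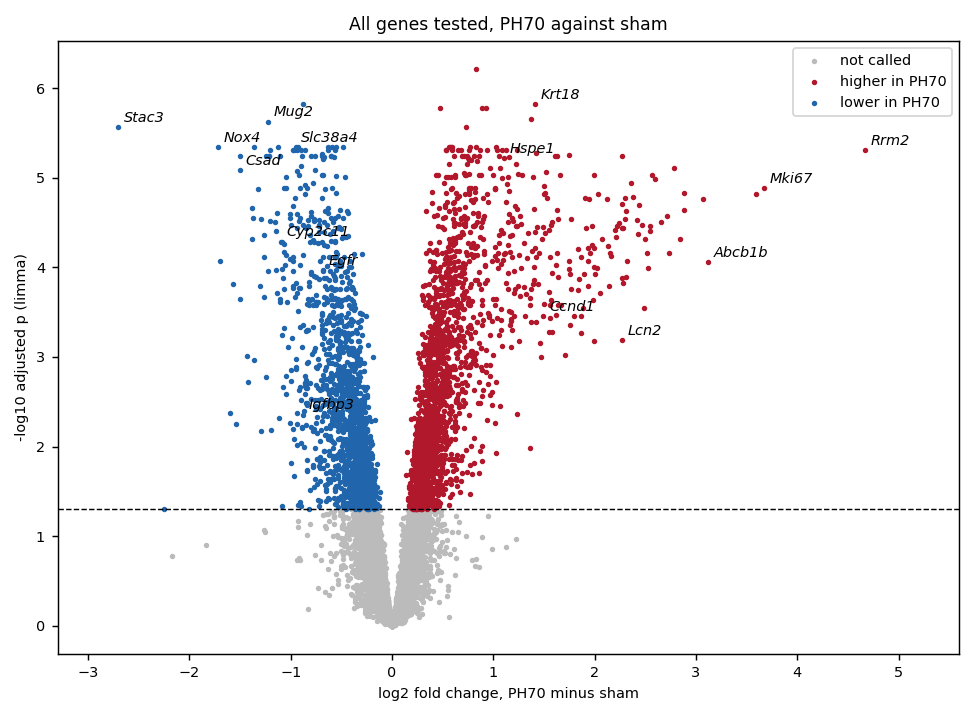
Change of each of the 18166 genes in PH70 against sham livers (x axis, log2 fold change; y axis, -log10 of the adjusted p from limma), with genes called higher in red and lower in blue and the dashed line at an adjusted p of 0.05. The largest rises, such as Rrm2 at 4.67 and Mki67 at 3.67, exceed the largest fall, Stac3 at -2.70.

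The largest rises were in genes of DNA synthesis and mitosis. Rrm2, the inducible subunit of the ribonucleotide reductase that makes deoxynucleotides, had values of -0.05, 3.49 and 3.99 in PH70 livers, against -2.01, -1.70 and -1.46 in sham livers. The groups did not overlap, and the lowest PH70 value was that of rat 139. Rrm2 was 25.5-fold higher in PH70 (log2 fold change 4.67 ± 0.60, adjusted p = 4.93e-06), and 38.7-fold higher without rat 139. Its 2 probe sets had changes of 4.60 and 4.75. A probe set left out because it lists Rrm2 with another symbol, Rrm2l1, rose less (log2 fold change 2.32 ± 0.39, adjusted p = 0.000111 by limma). Mki67, which encodes the proliferation antigen Ki-67, had values of -0.26, 2.62 and 3.0 in PH70 livers, against -2.02, -1.49 and -1.16 in sham livers. It too was higher in every PH70 rat, with a 12.7-fold difference (log2 fold change 3.67 ± 0.52, adjusted p = 1.3e-05), and rat 139 was again lowest at -0.26.

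Promoters of 5 of the cell cycle genes that rose are shown because 3 short motifs known to mark such genes differ in how often they occur in genes of different phases. E2F sites are known from genes switched on for S phase. The CHR element, often in promoters that also hold a CCAAT box, is known from genes switched on for G2 and mitosis. The complex that FOXM1 and B-MYB join switches these on. The sequences are from RefSeq (GRCr8), 250 bases before to 50 after the annotated start, on the strand of the gene, written 5′ to 3′, with motif matches in capitals. Mcm6 (chr13:42404303-42404602, minus strand) holds E2F and CCAAT matches, Plk1 (chr1:186147408-186147707, plus strand) and Cdc20 (chr5:137255750-137256049, minus strand) hold CHR and CCAAT matches, and Cdk1 (chr20:19265043-19265342, plus strand) holds all 3 kinds. Ccnb1 (chr2:33655176-33655475, minus strand), which encodes the mitotic cyclin B1, holds CCAAT matches and no match to the CHR or E2F letters searched. Other spellings of these motifs were not searched, so their absence is not shown.
Mcm6: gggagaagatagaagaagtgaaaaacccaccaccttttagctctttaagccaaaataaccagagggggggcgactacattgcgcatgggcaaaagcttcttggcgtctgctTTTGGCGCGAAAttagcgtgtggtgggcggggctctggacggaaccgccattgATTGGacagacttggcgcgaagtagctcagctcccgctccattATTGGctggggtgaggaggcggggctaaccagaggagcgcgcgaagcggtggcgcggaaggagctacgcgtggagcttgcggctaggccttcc
Plk1: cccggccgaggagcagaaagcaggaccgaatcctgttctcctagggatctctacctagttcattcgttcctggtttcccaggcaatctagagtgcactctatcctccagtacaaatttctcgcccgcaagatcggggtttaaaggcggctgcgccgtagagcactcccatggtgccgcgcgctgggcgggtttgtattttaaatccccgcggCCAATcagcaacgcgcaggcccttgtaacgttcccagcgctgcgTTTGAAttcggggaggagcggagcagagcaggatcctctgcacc
Cdc20: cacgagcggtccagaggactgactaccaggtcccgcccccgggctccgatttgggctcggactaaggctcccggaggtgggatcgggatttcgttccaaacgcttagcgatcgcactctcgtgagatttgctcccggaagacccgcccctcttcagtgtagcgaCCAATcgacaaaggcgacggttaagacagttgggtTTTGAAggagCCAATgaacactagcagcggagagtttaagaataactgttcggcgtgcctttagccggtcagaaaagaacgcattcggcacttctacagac
Cdk1: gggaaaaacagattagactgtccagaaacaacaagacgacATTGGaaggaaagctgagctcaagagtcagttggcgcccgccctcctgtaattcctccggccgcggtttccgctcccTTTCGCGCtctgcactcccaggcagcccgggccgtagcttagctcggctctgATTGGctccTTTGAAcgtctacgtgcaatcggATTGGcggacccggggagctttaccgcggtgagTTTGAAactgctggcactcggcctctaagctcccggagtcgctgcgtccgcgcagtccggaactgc
Ccnb1: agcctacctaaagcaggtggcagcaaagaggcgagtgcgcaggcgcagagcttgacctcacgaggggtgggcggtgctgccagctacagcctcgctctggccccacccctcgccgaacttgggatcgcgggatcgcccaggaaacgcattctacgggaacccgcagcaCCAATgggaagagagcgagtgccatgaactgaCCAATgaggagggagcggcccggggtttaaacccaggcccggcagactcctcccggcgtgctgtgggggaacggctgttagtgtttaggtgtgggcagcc

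The motifs were searched on both strands as TTTGAA or TTCGAA for CHR, CCAAT, and TTTCCCGC, TTTCGCGC, TTTGCCGC or TTTGGCGC for E2F, and matches may overlap. A promoter was in the table for 14502 of the 18166 genes tested, and 17.5% of these held a CHR match, 38.0% a CCAAT match and 3.08% an E2F match. In the list of kinetochore, spindle and chromosome segregation genes, 33 of 40 promoters (82.5%) held CHR, 27 (67.5%) CCAAT and 1 (2.5%) E2F. Among the replication genes the shares were reversed, with E2F in 17 of 39 promoters (43.6%) and CHR in 8 (20.5%), and CCAAT stood in 23 (59.0%). A match describes these letters in this window, and binding was not measured.

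DNA replication genes were higher in PH70 as a group. Of 45 measured genes of origin licensing and the replication fork, 40 were called higher and none lower, against 10.5% of all genes higher, and their median change was 1.07, against -0.01 over all genes. Mcm6, a subunit of the MCM helicase whose promoter is shown above, had values of 0.00, 2.22 and 2.44 in PH70 livers, against -0.86, -0.65 and -0.49 in sham livers. The groups did not overlap, and the difference was 5.91-fold (log2 fold change 2.56 ± 0.35, adjusted p = 9.35e-06). Its partner Mcm5 was 5.12-fold higher, Pcna, the sliding clamp of the polymerases, 4.35-fold, and Top2a, which untangles replicated DNA, 12-fold. The adjusted p of these 3 genes lay between 1.15e-05 and 1.71e-05.

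Deoxynucleotide supply showed a division between its members. Of 11 measured genes, 8 were higher and 1 was lower. Tyms, which makes thymidylate, was 3.85-fold higher (log2 fold change 1.95 ± 0.28, adjusted p = 1.74e-05), and Dck, which salvages deoxycytidine, 2.4-fold (log2 fold change 1.26 ± 0.19, adjusted p = 2.65e-05). The exception was Rrm2b, the p53-inducible form of the same reductase subunit as Rrm2. It had values of -0.82, -0.43 and -0.04 in PH70 livers, against 0.01, 0.17 and 0.56 in sham livers, so that all PH70 rats lay below all sham rats (log2 fold change -0.70 ± 0.14, adjusted p = 0.00044).

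Mitotic genes had the largest median rises of the 62 lists. Of 16 mitotic kinases and cyclins, 15 were higher with a median of 1.77, and all 46 kinetochore, spindle and segregation genes were higher with a median of 1.76. Cdk1, the kinase that starts mitosis, had values of -0.36, 2.34 and 2.71 in PH70 livers, against -0.80, -0.66 and -0.39 in sham livers. Every PH70 rat lay above every sham rat, by 5.66-fold on average (log2 fold change 2.50 ± 0.40, adjusted p = 4.8e-05). Plk1, which acts at centrosomes and kinetochores, had values of -0.11, 2.28 and 2.89 in PH70 livers, against -1.08, -0.91 and -0.74 in sham livers. Its difference was 7.16-fold (log2 fold change 2.84 ± 0.46, adjusted p = 4.84e-05), again without overlap. Cdc20, the activator of the anaphase-promoting complex, had values of -0.56, 2.36 and 2.99 in PH70 livers, against -0.74, -0.68 and -0.40 in sham livers, and here rat 139 fell among the sham rats at -0.56 (log2 fold change 2.53 ± 0.43, adjusted p = 0.000102). The cyclins Ccna2 and Ccnb1 were 8.4-fold and 6.64-fold higher, and Ube2c, the ubiquitin-conjugating enzyme of the anaphase-promoting complex, 6.31-fold.

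The factors known to drive these genes were higher with them. Of 16 E2F, MYB and FOXM1 factors and partners, 11 were higher and none lower. Foxm1 had values of -0.14, 2.02 and 2.38 in PH70 livers, against -0.64, -0.53 and -0.08 in sham livers, a 4.39-fold difference (log2 fold change 2.13 ± 0.35, adjusted p = 5.72e-05) with rat 139 alone inside the sham range. Mybl2, which encodes B-MYB, was 2.64-fold higher (log2 fold change 1.40 ± 0.25, adjusted p = 0.000139). E2f7, a repressor of the E2F family, was 2.63-fold higher (log2 fold change 1.39 ± 0.19, adjusted p = 9.87e-06), so that repressing members rose beside activating ones. All 27 measured DNA repair and checkpoint genes were also higher, with a median of 0.83. Uhrf1, which guides maintenance methylation of new DNA, was 4.09-fold higher, and Fancd2, of the crosslink repair pathway, 3.82-fold.

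**Figure D2:**
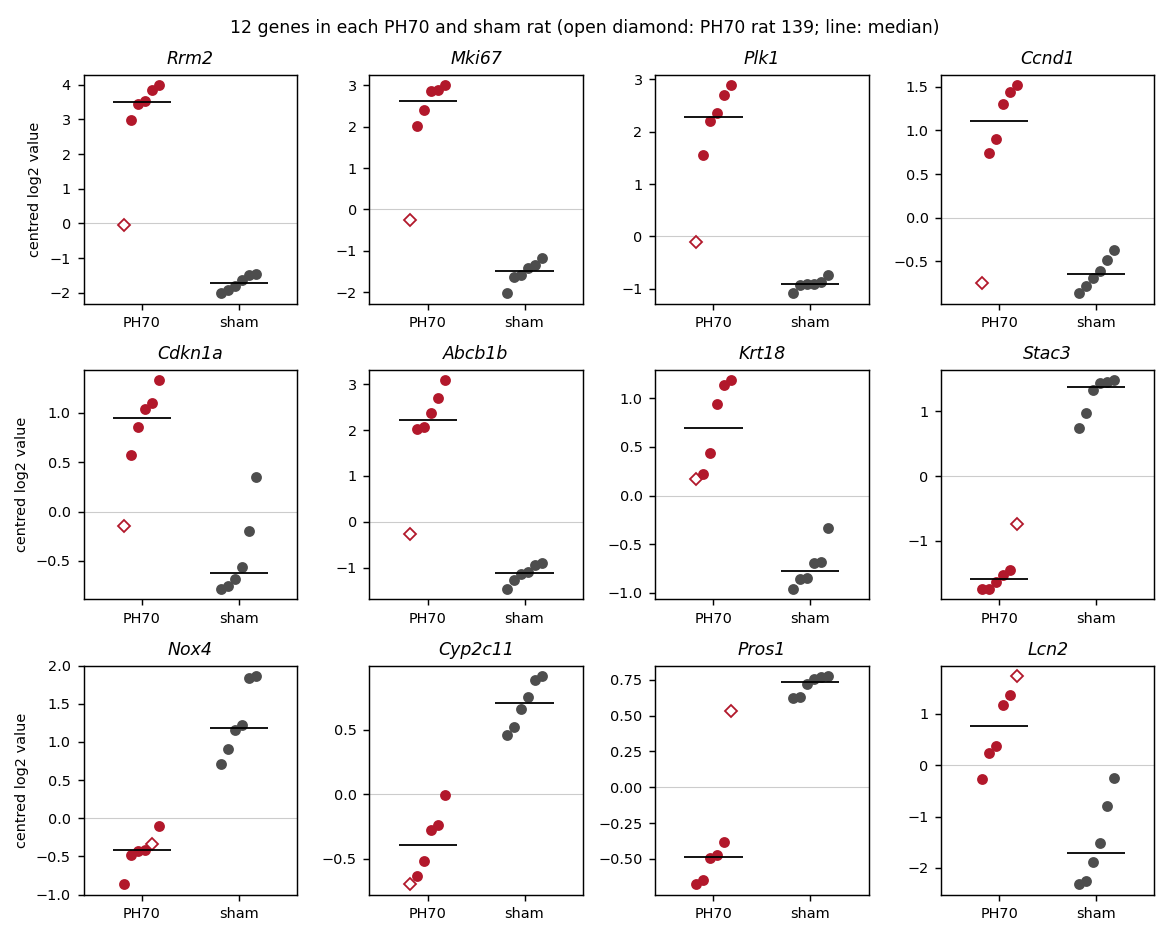
Centred log2 values of 12 genes in each PH70 rat (left, red) and each sham rat (right, grey), with a line at the group median and PH70 rat 139 as an open diamond. Rat 139 lies between the groups for Rrm2 at -0.05, among the sham rats for Ccnd1 at -0.75, and with the other PH70 rats for Nox4 at -0.34 and Cyp2c11 at -0.70.

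Cyclins of G1 rose together with inhibitors of the cell cycle, of which Cdkn1a is described below. Of 21 G1 and S cyclins, kinases and inhibitors, 12 were higher and 1 lower. Ccnd1, which encodes cyclin D1, had values of -0.75, 1.11 and 1.52 in PH70 livers, against -0.87, -0.65 and -0.37 in sham livers. The other 5 PH70 rats lay above all sham rats, and rat 139 at -0.75 lay inside the sham range. The difference was 2.82-fold with all rats (log2 fold change 1.49 ± 0.29, adjusted p = 0.000353) and 3.52-fold without rat 139. Ccne1, the cyclin of S phase entry, was 3.09-fold higher (log2 fold change 1.63 ± 0.24, adjusted p = 2.26e-05). The one member that fell was Rbl2, the p130 protein of resting cells, at -0.38, -0.26 and -0.02 in PH70 livers, against 0.31, 0.36 and 0.46 in sham livers (log2 fold change -0.62 ± 0.10, adjusted p = 7.61e-05).

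Cdkn1a, which encodes the p21 inhibitor and is a p53 target, had values of -0.14, 0.95 and 1.33 in PH70 livers, against -0.78, -0.62 and 0.35 in sham livers. Rat 139, at -0.14, was the only PH70 rat inside the sham range, and the difference was 2.35-fold (log2 fold change 1.23 ± 0.31, adjusted p = 0.00433). Of 19 p53 targets 5 were higher and 1 lower, among them Ccng1, a cyclin induced by p53, at 1.85-fold (log2 fold change 0.89 ± 0.25, adjusted p = 0.00998). The fit without rat 139 also called 5 higher, that without PH70 rat 59 called 3, and rat 139 itself lay above the sham range for none of these.

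Few genes of the early response passed the test at this time. Of 22 immediate early factors 2 were higher and 1 lower, near the shares of all genes. Egr1 had values of -0.34, 0.49 and 0.94 in PH70 livers, against -1.55, -1.25 and -0.02 in sham livers, overlapping between groups (log2 fold change 1.36 ± 0.38, adjusted p = 0.0103). Jun was 1.43-fold higher than in sham (log2 fold change 0.51 ± 0.15, adjusted p = 0.0139; 0.056 without PH70 rat 37), but -0.04 on the log2 scale against unoperated livers (adjusted p = 0.915). The change against sham is a mean of 2 probe sets that differed, at 0.15 and 0.88. Myc had values of -0.60, 0.23 and 0.58 in PH70 livers, against -0.84, -0.25 and 0.08 in sham livers, and its difference did not pass the test (log2 fold change 0.40 ± 0.23, adjusted p = 0.277). The lower member was Dusp1, a phosphatase that switches off MAP kinases and is induced by glucocorticoids, at -1.22, -0.79 and -0.27 in PH70 livers, against 0.28, 0.62 and 1.36 in sham livers, with all PH70 rats below all sham rats (log2 fold change -1.57 ± 0.28, adjusted p = 0.000152).

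In the interleukin 6 pathway 3 of 21 genes were higher (14.3%) and 2 lower (9.52%), near the shares of all genes (10.5% and 8.15%). The list median was 0.05. Osmr, the oncostatin M receptor, was 1.83-fold higher (log2 fold change 0.87 ± 0.25, adjusted p = 0.0111), with the highest value, 1.34, in rat 139. Bcl3, a nuclear partner of NF-kappaB, was 1.67-fold higher (log2 fold change 0.74 ± 0.17, adjusted p = 0.00207) and rat 139 was again highest at 1.26. Il6st, the shared signalling receptor gp130, was 1.3-fold lower (log2 fold change -0.38 ± 0.11, adjusted p = 0.0187), a call lost without PH70 rat 37, PH70 rat 136 or sham rat 143 (adjusted p of up to 0.0661).

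Egfr and Met, receptors of growth factors that drive hepatocytes into the cycle, were lower. Of 20 genes of the HGF and EGF families 4 were lower (6 without rat 139) and none higher, against 8.15% of all genes lower. Not every receptor in the list was called. Egfr had values of -0.67, -0.16 and 0.05 in PH70 livers, against 0.19, 0.52 and 0.81 in sham livers, so that the groups did not overlap (log2 fold change -0.68 ± 0.12, adjusted p = 0.000108), though against unoperated livers it was not called (adjusted p = 0.0653). Met, the receptor of HGF, had values of -0.51, -0.26 and -0.04 in PH70 livers, against -0.09, 0.20 and 0.28 in sham livers. All PH70 rats lay below the sham mean, though the ranges overlapped, and the difference was 1.32-fold (log2 fold change -0.40 ± 0.11, adjusted p = 0.00886). Hgf itself had values of -0.86, -0.18 and 0.68 in PH70 livers, against 0.05, 0.16 and 0.38 in sham livers and did not pass the test with all rats (log2 fold change -0.37 ± 0.20, adjusted p = 0.245), but did without rat 139, the highest, with a log2 change of -0.54 (adjusted p = 0.035).

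The growth hormone and IGF axis was lower in 4 of 21 genes and higher in none. Ghr, the growth hormone receptor, had values of -0.79, -0.32 and 0.39 in PH70 livers, against 0.31, 0.44 and 0.53 in sham livers, where rat 139 at 0.39 was the only PH70 rat inside the sham range (log2 fold change -0.75 ± 0.18, adjusted p = 0.00356). Igfbp3 and Igfals, whose proteins carry IGF-1 in blood, were 1.84-fold and 1.71-fold lower. Igf1 was 1.16-fold lower (log2 fold change -0.22 ± 0.07, adjusted p = 0.0333), a call lost without PH70 rat 37, 97 or 136 or sham rat 45, 112, 114 or 143 (adjusted p of up to 0.0945). Igfbp1, a hepatic IGF-binding protein known to rise early after resection, had values of -1.66, -0.63 and 0.97 in PH70 livers, against -0.71, 0.58 and 0.97 in sham livers and did not pass the test with all rats (log2 fold change -0.91 ± 0.46, adjusted p = 0.187). Without rat 139 its log2 change was -1.21 (adjusted p = 0.0496).

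In the TGF-beta, activin and BMP list 3 of 28 genes were higher (1 without PH70 rat 97) and 3 lower, near the shares of all genes (10.5% and 8.15%). Inhbc and Inhba, subunits of the activins, which restrain hepatocyte growth, were 2.12-fold and 1.62-fold lower, and so was the activin receptor Acvr2a, by 1.17-fold (log2 fold change -0.23 ± 0.07, adjusted p = 0.0138). Inhba had values of -0.72, -0.39 and 0.04 in PH70 livers, against -0.09, 0.37 and 0.58 in sham livers, with only rat 139 inside the sham range (log2 fold change -0.70 ± 0.14, adjusted p = 0.000526). Tgfb1, itself a growth inhibitor of hepatocytes, was 1.33-fold higher (log2 fold change 0.41 ± 0.12, adjusted p = 0.0165), and Id1, a target of BMP signalling, 1.41-fold (log2 fold change 0.49 ± 0.14, adjusted p = 0.0151; 0.0574 without PH70 rat 97).

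Of 18 glucocorticoid-responsive genes 7 were lower (10 without rat 139) and none higher, with 8.15% of all genes lower, and their median was -0.61. Against unoperated livers, where 9.31% of all genes were higher and 9.17% lower, 5 were lower and 1 higher, and the median was -0.20, while that of sham against unoperated livers was 0.36. Nr3c1, the glucocorticoid receptor, had values of -0.45, -0.31 and 0.11 in PH70 livers, against 0.40, 0.70 and 0.95 in sham livers. No PH70 rat reached the lowest sham value (log2 fold change -0.92 ± 0.13, adjusted p = 9.35e-06). Pck1, the gluconeogenic enzyme PEPCK, was 2-fold lower (log2 fold change -1.0 ± 0.29, adjusted p = 0.0152), a call lost without PH70 rat 37 or 58 (adjusted p of up to 0.0597). WNT signalling and pericentral genes were lower in 4 of 21 (19%) and higher in 1 (4.76%), where 8.15% of all genes were lower and 10.5% higher. The lower ones include Lgr4, a receptor of R-spondins, at 1.74-fold (log2 fold change -0.80 ± 0.14, adjusted p = 0.000118). YAP and TEAD targets had 1 of 16 higher and 1 lower (6.25% each), below the shares of all genes. The lower one was Nt5e, the CD73 ectonucleotidase (log2 fold change -0.98 ± 0.18, adjusted p = 0.000162). Of 17 clock genes 1 was higher (5.88%) and 2 were lower (11.8%), near the shares of all genes. The higher one was Wee1, a clock-controlled kinase that also restrains CDK1 (log2 fold change 1.30 ± 0.23, adjusted p = 0.000164).

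**Figure D3:**
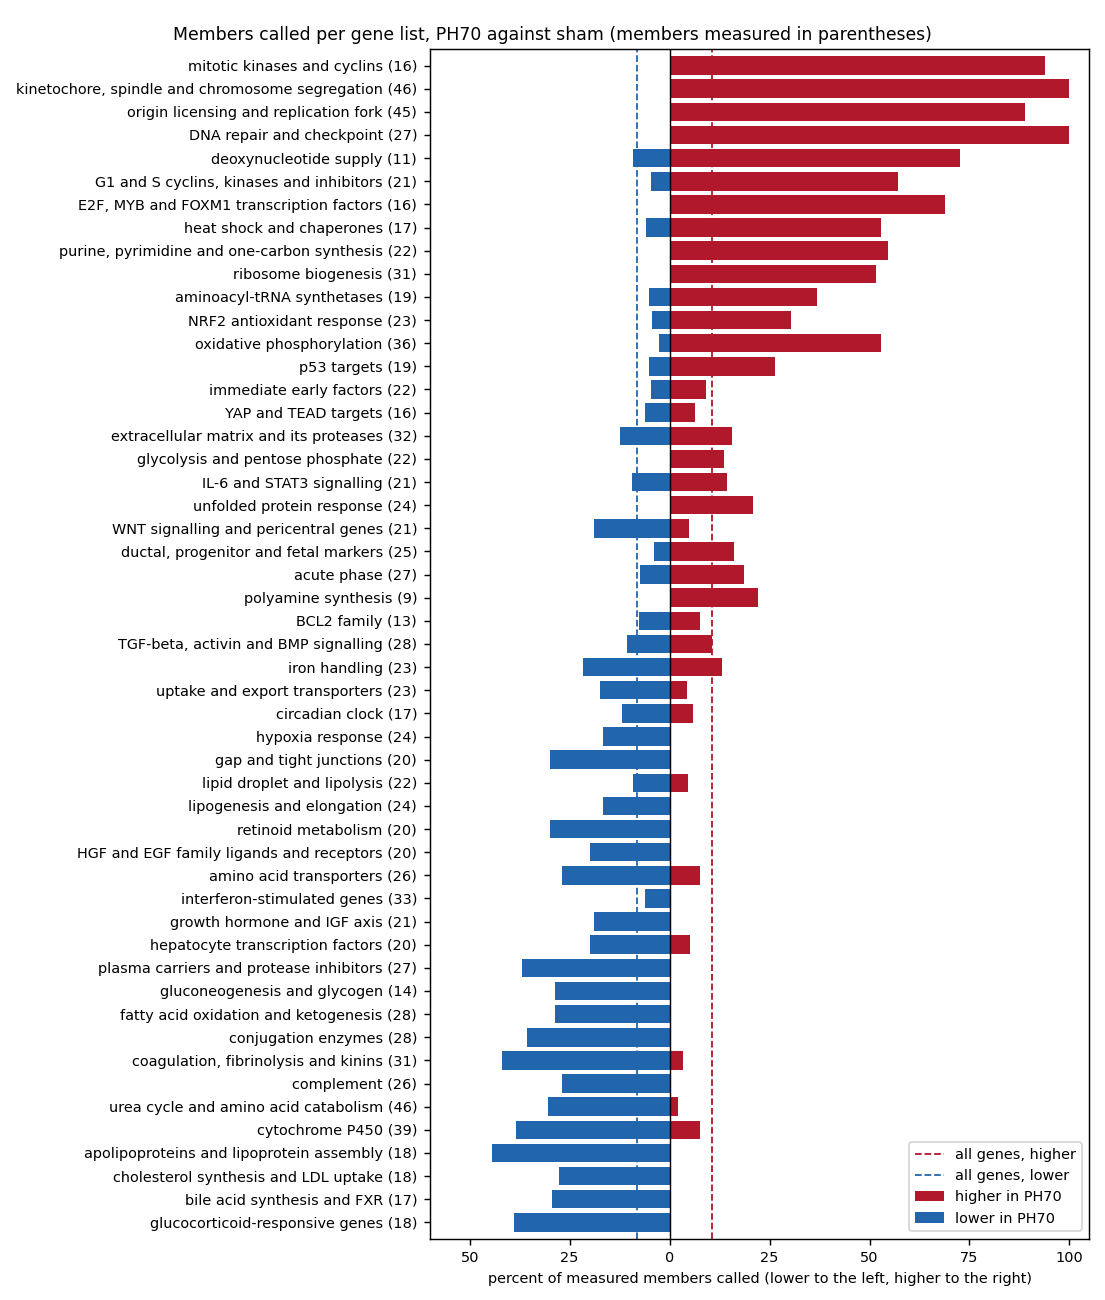
Percent of the measured members of 51 gene lists called higher (red, to the right) or lower (blue, to the left) in PH70 than in sham livers, ordered by the median change, with dashed lines at the shares of all genes (10.5% higher, 8.15% lower). Cell cycle lists stand at the top, with all 46 kinetochore genes higher, and glucocorticoid-responsive genes at the bottom with 7 of 18 lower.

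RNA of many genes of the protein-making machinery was higher, by less than that of the mitotic genes. Of 31 ribosome biogenesis genes 16 were higher and none lower, with a median of 0.32. Nhp2, a core protein of the particles that pseudouridylate ribosomal RNA, had values of -0.15, 1.06 and 1.21 in PH70 livers, against -0.67, -0.58 and -0.40 in sham livers, without overlap (log2 fold change 1.43 ± 0.18, adjusted p = 5.22e-06). Nop58, of the particles that methylate it, was 1.87-fold higher (log2 fold change 0.90 ± 0.21, adjusted p = 0.00236). Of 19 aminoacyl-tRNA synthetases 7 were higher and 1 lower, led by the valine enzyme Vars1 at 1.83-fold (log2 fold change 0.88 ± 0.14, adjusted p = 3.53e-05).

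In purine, pyrimidine and one-carbon synthesis 12 of 22 genes were higher and none lower. Ctps1, which makes CTP, had values of 0.06, 0.44 and 0.64 in PH70 livers, against -0.64, -0.37 and -0.22 in sham livers, without overlap (log2 fold change 0.84 ± 0.16, adjusted p = 0.000412), and Umps, which makes UMP, was 1.65-fold higher (log2 fold change 0.72 ± 0.12, adjusted p = 9.18e-05). Of 9 polyamine genes 2 were higher and none lower, against 10.5% of all genes higher, and the list median was 0.01. The genes that rose were Odc1, the rate-limiting ornithine decarboxylase, at 0.21, 0.55 and 0.99 in PH70 livers, against -0.43, -0.26 and 0.06 in sham livers (log2 fold change 0.82 ± 0.18, adjusted p = 0.00108), and Azin1, which protects it from degradation, at 1.48-fold (log2 fold change 0.56 ± 0.11, adjusted p = 0.000266).

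Of 17 heat shock and chaperone genes 9 were higher and 1 lower. Hspe1 and Hspd1, which form the mitochondrial chaperonin, were 2.16-fold (log2 fold change 1.11 ± 0.15, adjusted p = 6e-06) and 1.69-fold (log2 fold change 0.75 ± 0.11, adjusted p = 1.51e-05) higher, and the cytosolic chaperonin subunit Cct3 1.4-fold (log2 fold change 0.49 ± 0.11, adjusted p = 0.00114). In the unfolded protein response list 5 of 24 were higher and none lower, with a median of 0.05, and 11 were higher and 1 lower than in unoperated livers. The largest rise was that of Creld2, a secreted chaperone of the endoplasmic reticulum. Creld2 had values of 0.50, 0.85 and 1.61 in PH70 livers, against -0.23, -0.06 and 0.29 in sham livers, and all PH70 rats, rat 139 included at 1.09, lay above all sham rats (log2 fold change 0.95 ± 0.18, adjusted p = 0.000319). Antioxidant genes under NRF2 were higher in 7 of 23 and lower in 1, with Txnrd1, thioredoxin reductase, at 1.51-fold higher (log2 fold change 0.59 ± 0.10, adjusted p = 0.000132) and Gclm, of glutathione synthesis, at 1.45-fold lower (log2 fold change -0.54 ± 0.11, adjusted p = 0.000577).

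Oxidative phosphorylation gave other counts against sham than against unoperated livers. Of 36 genes 19 were higher and 1 lower than in sham livers, but 4 were higher and 5 lower than in unoperated livers. Cycs, cytochrome c, was 1.47-fold higher than in sham (log2 fold change 0.56 ± 0.14, adjusted p = 0.0042), and its change against unoperated livers was 0.13 (adjusted p = 0.63). Sdha, the catalytic subunit of succinate dehydrogenase, was the member that fell, at -0.43, -0.36 and 0.18 in PH70 livers, against 0.17, 0.30 and 0.46 in sham livers (log2 fold change -0.56 ± 0.09, adjusted p = 5.08e-05), and it was also lower than in unoperated livers by a log2 change of -0.57 (adjusted p = 4.56e-05).

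Differentiated functions of the hepatocyte were lower in many of the lists examined. The largest single fall of all genes was that of Stac3, which, like Nox4, is in none of these lists. Stac3, known as a muscle adaptor protein of calcium channels, had values of -1.74, -1.58 and -0.73 in PH70 livers, against 0.74, 1.38 and 1.48 in sham livers. It was 6.52-fold lower (log2 fold change -2.70 ± 0.31, adjusted p = 2.73e-06), and rat 139, at -0.73, was the PH70 rat nearest to the sham rats but lay below all of them. Nox4, an NADPH oxidase that makes hydrogen peroxide, had values of -0.87, -0.42 and -0.10 in PH70 livers, against 0.71, 1.19 and 1.86 in sham livers. The groups did not overlap, and the difference was 3.29-fold (log2 fold change -1.72 ± 0.21, adjusted p = 4.54e-06). Csad, a taurine synthesis enzyme, was 2.84-fold lower (log2 fold change -1.50 ± 0.20, adjusted p = 8.21e-06), and Fmo1, a flavin monooxygenase, 2.83-fold (log2 fold change -1.50 ± 0.19, adjusted p = 5.65e-06).

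Of 39 cytochrome P450 genes 15 were lower and 3 higher. Cyp2c11, the main male-specific P450 of rat liver, had values of -0.70, -0.40 and -0.01 in PH70 livers, against 0.46, 0.71 and 0.92 in sham livers, and rat 139 was the lowest of all (log2 fold change -1.09 ± 0.18, adjusted p = 5.17e-05). Cyp17a1, a steroid hydroxylase, was 2.9-fold lower (log2 fold change -1.54 ± 0.40, adjusted p = 0.00564), and Cyp2j3, an arachidonic acid epoxygenase, 2.39-fold (log2 fold change -1.26 ± 0.21, adjusted p = 7.66e-05). Against this trend Cyp1a1, the target of the aryl hydrocarbon receptor, was 1.73-fold higher (log2 fold change 0.79 ± 0.17, adjusted p = 0.000971). Conjugation enzymes were lower in 10 of 28 and higher in none, among them the sulfotransferase Sult1c3 at -1.02, -0.82 and 0.24 in PH70 livers, against 0.41, 0.49 and 0.68 in sham livers (log2 fold change -1.21 ± 0.15, adjusted p = 4.93e-06).

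Transporters gave the fourth largest rise of all genes. Abcb1b, a P-glycoprotein that exports drugs, had values of -0.27, 2.22 and 3.08 in PH70 livers, against -1.46, -1.11 and -0.90 in sham livers. Rat 139 lay between the groups at -0.27, the groups did not overlap, and the difference was 8.71-fold (log2 fold change 3.12 ± 0.53, adjusted p = 8.73e-05). It was the only uptake or export transporter called higher, against 4 of 23 lower. Slc10a1, the NTCP carrier that takes up bile acids from blood, had values of -0.93, -0.69 and 0.09 in PH70 livers, against 0.16, 0.27 and 0.32 in sham livers (log2 fold change -0.83 ± 0.17, adjusted p = 0.000498), and Slc22a8, an organic anion transporter, was 2.1-fold lower (log2 fold change -1.07 ± 0.18, adjusted p = 6.77e-05). Amino acid transporters were lower in 7 of 26 and higher in 2. Slc38a4, which takes up neutral amino acids in hepatocytes, was 1.93-fold lower (log2 fold change -0.95 ± 0.12, adjusted p = 4.57e-06), and Slc3a2, the heavy chain that several exchangers share, 1.49-fold higher (log2 fold change 0.58 ± 0.15, adjusted p = 0.00492).

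In bile acid synthesis and its control by FXR 5 of 17 genes were lower, and 10 without rat 139. Cyp27a1, which starts the acidic pathway, was 1.92-fold lower (log2 fold change -0.94 ± 0.15, adjusted p = 3.61e-05). Cyp7a1, the rate-limiting enzyme of the classic pathway, had values of -0.43, 0.14 and 1.76 in PH70 livers, against -1.12, 0.29 and 1.59 in sham livers, spread widely in both groups, and no difference passed the test (log2 fold change -0.07 ± 0.49, adjusted p = 0.951). In cholesterol synthesis and LDL uptake 5 of 18 were lower, and 11 without rat 139, with a median of -0.44. Against unoperated livers only 1 was lower and the median was -0.08, while sham livers had a median of 0.28 against unoperated livers. Fdft1, squalene synthase, had values of -0.88, -0.43 and 0.50 in PH70 livers, against 0.06, 0.40 and 0.81 in sham livers, with rat 139 highest of the PH70 rats at 0.50 (log2 fold change -0.74 ± 0.19, adjusted p = 0.0047).

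In fatty acid oxidation and ketogenesis 8 of 28 were lower and none higher. The lower count was 3 without PH70 rat 37 or 97, 4 without PH70 rat 58 or 136 or sham rat 45, and 5 without sham rat 112, 114, 141 or 143, but 12 without rat 139 and 13 against unoperated livers. Bdh1, which makes the ketone body 3-hydroxybutyrate, had values of -0.96, -0.69 and 0.79 in PH70 livers, against 0.55, 0.90 and 1.0 in sham livers, with rat 139 at 0.79 among the sham rats (log2 fold change -1.27 ± 0.23, adjusted p = 0.000214). Cpt1a, which admits fatty acids to mitochondria, was 1.91-fold lower (log2 fold change -0.93 ± 0.23, adjusted p = 0.00421), and Ppara, the nuclear receptor that controls this pathway, 1.96-fold (log2 fold change -0.97 ± 0.26, adjusted p = 0.00816). Lipogenesis and elongation had 4 of 24 lower and none higher, or 6 lower and 4 higher without rat 139, and 7 lower and none higher than in unoperated livers. Their list median against sham was -0.08. The list includes Acss2, which makes acetyl-CoA from acetate, at 2-fold lower (log2 fold change -1.0 ± 0.23, adjusted p = 0.00185). Plin2, a coat protein of lipid droplets, had values of -0.60, -0.11 and 0.11 in PH70 livers, against -0.56, -0.34 and 0.06 in sham livers and did not pass the test (log2 fold change 0.14 ± 0.14, adjusted p = 0.588).

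Of 46 genes of the urea cycle and amino acid catabolism 14 were lower and 1 higher, and against unoperated livers 21 were lower and 1 higher. Sds, serine dehydratase, had values of -0.82, -0.53 and 0.06 in PH70 livers, against 0.09, 0.88 and 2.40 in sham livers, just without overlap (log2 fold change -1.43 ± 0.30, adjusted p = 0.000964). Kmo, of the kynurenine pathway, was 2.47-fold lower (log2 fold change -1.31 ± 0.23, adjusted p = 0.00016), and Cdo1, cysteine dioxygenase, 1.93-fold (log2 fold change -0.95 ± 0.20, adjusted p = 0.00105). Gluconeogenesis and glycogen genes were lower in 4 of 14 (28.6%, against 8.15% of all genes), among them Slc37a4, the glucose 6-phosphate carrier (log2 fold change -0.84 ± 0.26, adjusted p = 0.0185). Glycolysis and the pentose phosphate pathway had 3 of 22 higher (13.6%) and none lower, near the 10.5% of all genes higher. Among the 3 was Tkt, transketolase, at 1.62-fold (log2 fold change 0.70 ± 0.13, adjusted p = 0.000293), which was not called against unoperated livers. Retinoid metabolism was lower in 6 of 20, with Dhrs3, which reduces retinal, at 1.65-fold (log2 fold change -0.72 ± 0.11, adjusted p = 3.44e-05).

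Transcription factors of the hepatocyte were lower in 4 of 20 and higher in 1. Cebpa, which holds back the hepatocyte cycle, had values of -0.46, -0.13 and 0.00 in PH70 livers, against 0.00, 0.44 and 0.90 in sham livers, meeting at their edges (log2 fold change -0.61 ± 0.19, adjusted p = 0.0188), and the call was lost without PH70 rat 59 or sham rat 141 (adjusted p of up to 0.058). Nr1i2, the xenobiotic receptor PXR, was 1.4-fold lower (log2 fold change -0.49 ± 0.12, adjusted p = 0.00281).

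**Figure D4:**
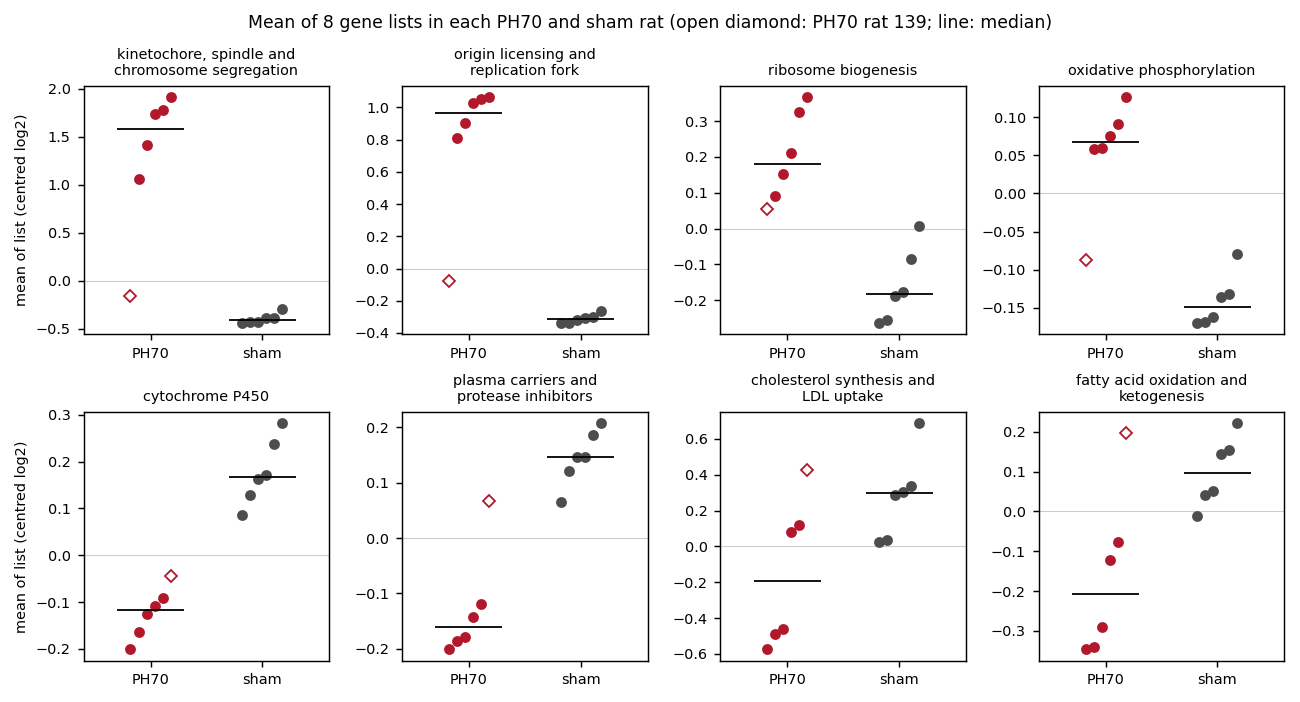
Mean centred log2 value of 8 gene lists in each PH70 rat (left, red) and each sham rat (right, grey), with a line at the group median and PH70 rat 139 as an open diamond. For the kinetochore list rat 139 has a mean of -0.16 against 1.06 to 1.92 in the other 5 PH70 rats, while for cytochrome P450 genes it lies at -0.04, below all sham rats.

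Many secreted proteins of the liver were lower than in sham livers. Apolipoproteins and lipoprotein assembly had 8 of 18 lower, plasma carriers and protease inhibitors 10 of 27, and complement 7 of 26, with none higher in these 3 lists. Without rat 139 the lower counts were 10, 12 and 12, and 1 gene of the apolipoprotein list was higher. Against unoperated livers the complement list went both ways, with 6 higher and 5 lower and a median of 0.07, against -0.27 relative to sham, and sham livers had a median of 0.25 against unoperated livers. Plasma carriers were higher in 4 and lower in 14 than in unoperated livers, and apolipoproteins in 1 and 7. Lipc, hepatic lipase, was 1.81-fold lower (log2 fold change -0.86 ± 0.11, adjusted p = 4.93e-06). Mug2, an inhibitor of the macroglobulin family, had values of -0.92, -0.74 and -0.10 in PH70 livers, against 0.30, 0.60 and 0.72 in sham livers, without overlap (log2 fold change -1.23 ± 0.14, adjusted p = 2.36e-06). Mbl2, a lectin that starts complement activation, was 1.92-fold lower (log2 fold change -0.94 ± 0.26, adjusted p = 0.00965). Alb, albumin, had values of -0.07, -0.02 and 0.01 in PH70 livers, against -0.03, 0.01 and 0.02 in sham livers, and no difference passed the test (log2 fold change -0.03 ± 0.03, adjusted p = 0.613).

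Coagulation, fibrinolysis and kinin genes were lower in 13 of 31 and higher in 1. Without rat 139 they were lower in 17 and higher in 2, and against unoperated livers lower in 12 and higher in 5. Pros1, the anticoagulant protein S, had values of -0.68, -0.48 and 0.53 in PH70 livers, against 0.62, 0.74 and 0.78 in sham livers. The other 5 PH70 rats lay far below the sham rats and rat 139, at 0.53, just below them (log2 fold change -1.07 ± 0.15, adjusted p = 1.3e-05). F11, coagulation factor XI, was 1.93-fold lower (log2 fold change -0.95 ± 0.17, adjusted p = 0.000148). The member that rose was Fgg, the fibrinogen gamma chain and an acute phase protein, by 1.1-fold (log2 fold change 0.14 ± 0.04, adjusted p = 0.0114).

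Acute phase genes were higher in 5 of 27 (18.5%) and lower in 2 (7.41%, and 4 genes without rat 139), where 10.5% of all genes were higher and 8.15% lower. Against unoperated livers they were higher in 14 and lower in 1. Lcn2, lipocalin 2, which binds bacterial siderophores, had values of -0.26, 0.77 and 1.74 in PH70 livers, against -2.32, -1.70 and -0.24 in sham livers, with the highest value in rat 139 (log2 fold change 2.27 ± 0.46, adjusted p = 0.000646). Timp1, an inhibitor of matrix proteases, had values of -0.40, 0.38 and 0.69 in PH70 livers, against -2.0, -1.30 and -0.44 in sham livers and did not overlap (log2 fold change 1.56 ± 0.30, adjusted p = 0.000368). A2m, the main rat acute phase macroglobulin, had values of -0.63, 0.35 and 1.07 in PH70 livers, against -2.50, -0.43 and 0.73 in sham livers and did not pass the test against sham (log2 fold change 0.89 ± 0.37, adjusted p = 0.102). Against unoperated livers its log2 change was 4.17 (adjusted p = 1.14e-08), and that of Lcn2 was 5.99 (adjusted p = 6.41e-10). Iron genes were lower in 5 of 23 (9 without rat 139), with the iron exporter Slc40a1, ferroportin, at 1.97-fold lower (log2 fold change -0.98 ± 0.16, adjusted p = 8.48e-05), and higher in 3, among them Hamp, its regulator hepcidin, at 1.6-fold (log2 fold change 0.68 ± 0.21, adjusted p = 0.0245). The Hamp call was lost without PH70 rat 97, sham rat 41 or sham rat 45 (adjusted p of up to 0.0896).

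Keratins of the hepatocyte rose. Krt18 had values of 0.17, 0.69 and 1.18 in PH70 livers, against -0.96, -0.77 and -0.33 in sham livers, without overlap (log2 fold change 1.42 ± 0.15, adjusted p = 1.51e-06), and its partner Krt8 was 1.9-fold higher (log2 fold change 0.93 ± 0.20, adjusted p = 0.00122). Both are in the list of ductal, progenitor and fetal markers, where 4 of 25 were higher (2 without PH70 rat 97, sham rat 45 or sham rat 114) and 1 lower (0 without rat 139). The shares were 16% higher and 4% lower, against 10.5% and 8.15% of all genes. Keratins 8 and 18 are made by all hepatocytes, and the fetal marker Afp, alpha-fetoprotein, had values of -0.40, 0.22 and 0.50 in PH70 livers, against -0.38, -0.17 and 0.36 in sham livers and did not pass the test with all rats (log2 fold change 0.30 ± 0.14, adjusted p = 0.165), with a log2 change of 0.41 without rat 139 (adjusted p = 0.0246). Of 10 bile duct cell markers none was called. Gap and tight junction genes were lower in 6 of 20 and higher in none, among them Gjb1, connexin 32, at -0.55, -0.40 and -0.22 in PH70 livers, against -0.02, 0.12 and 0.27 in sham livers, without overlap (log2 fold change -0.52 ± 0.11, adjusted p = 0.00071).

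Cell type markers were read beside these lists. Hepatocyte markers were lower in 4 of 10, sinusoidal endothelial markers in 3 of 9, stellate cell and fibroblast markers in 2 of 14, and T and NK cell markers in 2 of 15, with none higher in these lists. Of all genes 8.15% were lower and 10.5% higher, against 14.3% lower in the stellate list and 13.3% in the T and NK list. Whether the shares of such short lists differ from those of all genes was not tested. Kupffer cell and macrophage markers were lower in 3 of 17 (5 without rat 139) and higher in 1. The one that rose was Marco, a scavenger receptor, with values of 0.55, 0.78 and 0.88 in PH70 livers, against -0.38, -0.14 and 0.05 in sham livers (log2 fold change 0.92 ± 0.20, adjusted p = 0.00146), and Csf1r, the receptor of the macrophage growth factor, was 1.58-fold lower (log2 fold change -0.66 ± 0.14, adjusted p = 0.000921). Neutrophil markers were higher in 3 of 13, in 1 without rat 139, and in 1 as well without PH70 rat 59 or sham rat 41, and in 0 when only PH70 and sham rats were fitted. S100a8, a calprotectin subunit, had values of -0.01, 0.36 and 1.66 in PH70 livers, against -0.23, -0.10 and 0.00 in sham livers, and the highest of these was rat 139 (log2 fold change 0.59 ± 0.17, adjusted p = 0.0136).

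Red cell markers were lower in 3 of 7, and in 1 without PH70 rat 59, PH70 rat 97 or sham rat 143. Hbb-b1, a haemoglobin chain, had values of -0.42, -0.06 and 0.06 in PH70 livers, against 0.63, 0.69 and 1.15 in sham livers (log2 fold change -0.94 ± 0.17, adjusted p = 0.000194), but against unoperated livers its log2 change was 0.20 (adjusted p = 0.523). How much blood or how many cells of each kind the pieces of liver held was not measured. In the extracellular matrix list 5 of 32 were higher (2 without PH70 rat 97 or sham rat 143, 3 without PH70 rat 37 or 136 or sham rat 45 or 114) and 4 lower. These shares, 15.6% and 12.5%, were near those of all genes (10.5% and 8.15%), and the list median was 0.07. Mmp14, a membrane-bound matrix protease, was 1.46-fold higher (log2 fold change 0.55 ± 0.12, adjusted p = 0.00173). Interferon-stimulated genes were lower in 2 of 33 and higher in none, a share near that of all genes, and without rat 139 the count was 6. The hypoxia list had 4 of 24 lower (2 without sham rat 143), including Vegfa, the vascular growth factor (log2 fold change -0.38 ± 0.11, adjusted p = 0.0186; 0.0559 without sham rat 143).

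MicroRNA genes, a class looked at after the values were seen, were called rarely. The probe sets are assigned to the microRNA genes and do not tell precursors from mature forms. Of 363 tested, 1 was higher (0.275%) and 14 were lower (3.86%), against 10.5% and 8.15% of all genes. Those whose call held with each of the 12 rats left out in turn were Mir223, Mir328b, Mir568 and Mir802, all lower, and the mature forms of 3 of them are shown from RefSeq (GRCr8), 5′ to 3′, with the seed, bases 2 to 8, in capitals. The seeds are all different.
miR-223-3p (chrX:65151450-65151470, plus strand): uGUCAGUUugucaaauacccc
miR-328b-3p (chr14:44016793-44016810, plus strand): cUGGCCCUcucugcccua
miR-568 (chr11:70559921-70559940, minus strand): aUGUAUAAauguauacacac

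Mir223, known from myeloid cells, had values of -0.35, -0.18 and -0.02 in PH70 livers, against -0.02, 0.06 and 0.37 in sham livers (log2 fold change -0.30 ± 0.08, adjusted p = 0.006). The groups met only at the edge. Mir568 had values of -0.53, -0.17 and 0.26 in PH70 livers, against 0.15, 0.36 and 0.48 in sham livers (log2 fold change -0.51 ± 0.13, adjusted p = 0.0048), where rat 139 alone lay inside the sham range. Mir802 was 1.44-fold lower (log2 fold change -0.52 ± 0.13, adjusted p = 0.00483).

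The position of rat 139 against the sham range differed between gene lists, which says nothing of its distance from the other PH70 rats. Among the 2199 genes called higher in the fit without it, this rat lay above the sham range for 887 (40.3%), and among the 1860 called lower it lay below the sham range for 602 (32.4%), where over all tested genes the shares were 16.7% and 17.7%. It lay above the sham range for 13 of 16 mitotic kinases and cyclins, 25 of 46 kinetochore genes, 22 of 40 replication genes, 8 of 10 chaperones and 5 of 5 unfolded protein response genes. It lay below the sham range for 12 of 15 P450 genes and 10 of 12 plasma carriers. In contrast it lay below the sham range for 0 of 11 cholesterol genes, 1 of 12 fatty acid oxidation genes and 0 of 6 interferon-stimulated genes. These counts describe 1 rat and were not tested.

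PH70 was then set against the smaller and the larger resection. Against PH30, 320 genes (1.76%) were higher and 93 (0.512%) lower, with 18 to 1911 calls when 1 rat was left out and 2420 without rats 95 and 139. The kinetochore, Rrm2 and Stac3 results that follow are given only with rats 95 and 139 included. Of the 46 kinetochore genes 6 were higher, their median difference being 0.90. Rrm2 had values of -0.05, 3.49 and 3.99 in PH70 livers, against -0.48, 0.44 and 3.78 in PH30 livers, and the highest PH30 values overlapped the PH70 range (log2 fold change 1.99 ± 0.60, adjusted p = 0.0673). Stac3 had values of -1.74, -1.58 and -0.73 in PH70, against -2.26, 0.00 and 1.04 in PH30 livers (log2 fold change -1.28 ± 0.31, adjusted p = 0.0346). The PH70 values of -0.05 for Rrm2 and -0.73 for Stac3 were those of rat 139.

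Against PH90, 1896 genes (10.4%) were higher in PH70 and 2558 (14.1%) lower. Mitotic genes were higher in PH70, with 46 of 46 kinetochore genes and a median difference of 1.25. Mki67 had values of -0.26, 2.62 and 3.0 in PH70 livers, against -1.99, -0.37 and 0.78 in PH90 livers (log2 fold change 2.65 ± 0.52, adjusted p = 0.000239). Growth genes were lower in PH70, with 29 of 31 ribosome biogenesis genes and a median of -0.61. Of the hepatocyte functions, 22 of 39 P450 genes were higher in PH70 and 5 lower, and 17 of 26 complement genes were higher. Other lists went the opposite way, with 13 of 26 amino acid transporters lower in PH70 and 3 higher (median -0.29), and 9 of 22 lipid droplet and lipolysis genes lower and 3 higher (median -0.18). Cyp7a1, not called against sham, had values of -0.43, 0.14 and 1.76 in PH70, against -4.49, -2.93 and -1.66 in PH90 livers (log2 fold change 3.33 ± 0.49, adjusted p = 4.53e-06).

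Ccnd1 and Ccne1 did not pass the test against PH90 (log2 fold change -0.56 ± 0.29, adjusted p = 0.178 and log2 fold change 0.35 ± 0.24, adjusted p = 0.355), while Plk1 was higher in PH70 (log2 fold change 2.11 ± 0.46, adjusted p = 0.000704). Abcb1b was higher in PH70 than in sham but lower than in PH90 (log2 fold change -1.56 ± 0.53, adjusted p = 0.0295), and Krt18 likewise (log2 fold change -1.29 ± 0.15, adjusted p = 1.19e-07). Plin2 was lower in PH70 than in PH90 (log2 fold change -1.74 ± 0.14, adjusted p = 9.23e-11).

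**Figure D5:**
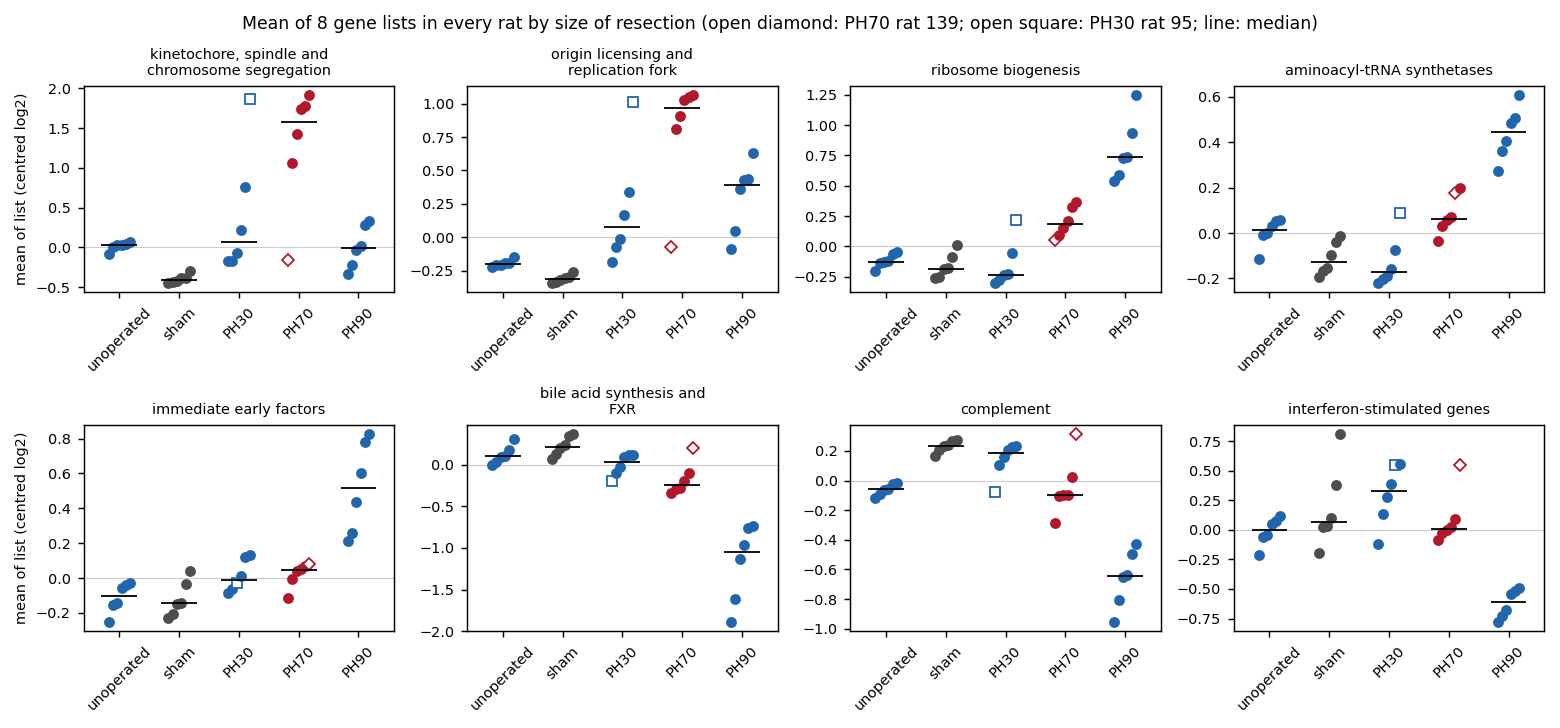
Mean centred log2 value of 8 gene lists in every rat, ordered from unoperated and sham to PH30, PH70 and PH90, with a line at the group median, PH70 rat 139 as an open diamond and PH30 rat 95 as an open square. Kinetochore genes have their highest group median in PH70, whereas ribosome biogenesis genes reach their highest values in PH90, at 0.54 to 1.25, against 0.06 to 0.37 in PH70.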

How the data were processed

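Liver RNA was measured on 1 Affymetrix Rat Gene 2.0 ST array per rat. Per the submitters' processing notes, the authors made the values with RMA in Affymetrix Expression Console. The version of either is not given in the sources. The deposited table holds log2 values of 29489 probe sets on 30 arrays. Every probe set has a median of 0 over the arrays (within 5e-07), so it was centred before deposit, and signal over background is unknown. The log2 scale is taken from RMA, since the table states none. Column medians lie between -0.00881 and 0.022. The number of arrays, 6 per group, limits the precision.

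Probe sets with exactly 1 gene symbol in the platform annotation (18511) were averaged per gene, giving 18166 genes, and 575 probe sets with several symbols and 10403 with none were left out. For 291 genes with more than 1 probe set the mean was used, and in 74 of these the probe sets correlated below 0. Near-identical family members, such as P450, macroglobulin, histone and globin genes, may share probes and are uncertain for that reason. The limma 3.58.1 fit in R 4.3.3 (lmFit, eBayes, two-sided) used all 30 arrays with 1 mean per group and 25 residual degrees of freedom, and was tested on simulated data first. Figures were drawn with matplotlib 3.10.9. Rats are separate animals, and their numbers pair none.

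The comparison, the 51 gene lists and the 11 cell marker lists were chosen with earlier results of these data known. Named genes were taken from a selection of the 12 largest called rises and 12 largest called falls, up to 4 called members of each list in each direction, the 2 largest where none was called, and 20 regeneration genes. Mir223, Mir328b, Mir568, Mir802, H1f5, H2bc8 and Hist1h2bq lie outside it and were chosen after their values were seen. Alternatives were a fit of only the groups compared, rats 95 and 139 left out, array weights, a robust prior, quantile normalization, the most variable probe set, a variance filter, stricter thresholds, unoperated rats in place of sham, and each rat left out in turn. A filter on low values could not be applied to centred values.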

Additional observations from a re-analysis of the deposited data

Results flagged for a closer look

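In 374 groups of 6 values, made of 125 genes and 62 list means in PH70 and in sham livers, the gap of the extreme rat to its nearest neighbour passed Dixon's 95% critical value in 52 cases, where chance alone gives about 1 group in 20. PH70 rat 139 was that rat for 29 genes and 11 list means.

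It was far below the other PH70 rats for genes of the cell cycle and DNA synthesis, with log2 values of Ccna2 -0.217, Ccnd1 -0.748, E2f7 -0.147, Fancd2 -0.34, Foxm1 -0.136, H1f5 0.411, H2ax -0.0897, Mcm5 0.148, Mcm6 0.00468, Mki67 -0.262, Rrm2 -0.0505, Top2a -0.111, Tyms 0.0202, Uhrf1 0.00921 and Wee1 -0.16. These genes rose in PH70 livers, and the other 5 PH70 rats lay well above rat 139 in each. The lowest of those 5 was at 2.00 for Mki67 and at 2.98 for Rrm2. It was also far below them for other genes that rose, which were Abcb1b -0.274, Nhp2 -0.146, Txnrd1 -0.0643 and Vars1 -0.183. It was far above them for Cdo1 0.00462, Cyp17a1 0.612, Cyp27a1 0.405, Mug2 -0.101, Pros1 0.531, S100a8 1.66, Sdha 0.176, Slc38a4 0.128, Stac3 -0.732 and Sult1c3 0.241, of which S100a8, a neutrophil marker, rose in PH70 livers and the others fell. Among list means it was lowest for origin licensing and replication fork (-0.0748), deoxynucleotide supply (-0.0432), G1 and S cyclins, kinases and inhibitors (-0.0886), E2F, MYB and FOXM1 transcription factors (-0.0496), DNA repair and checkpoint (-0.0892), p53 targets (-0.0809), purine, pyrimidine and one-carbon synthesis (-0.0957) and oxidative phosphorylation (-0.0875). It was highest for amino acid transporters (0.147), plasma carriers and protease inhibitors (0.0672) and interferon-stimulated genes (0.55). What sets rat 139 apart was not tested.

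Other rats stood apart more rarely. In PH70 livers these were rat 37 for Jun at 0.763 and, on the low side, for Marco at 0.551, rat 58 for Cyp7a1 at 1.76, and rat 97 for the mean of conjugation enzymes at -0.481. Sham rat 41 was high for Ccng1 at 0.202 and for the mean of lipogenesis and elongation at 0.206, and low for Vars1 at -0.819. Sham rat 112 was high for Cdc20 at -0.4 and low for Alb at -0.0329. Sham rat 141 was high for Azin1 at 0.202 and for Cyp17a1 at 1.26, and sham rat 45 was high for Acvr2a at 0.342.

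Of 10978 probe sets with no gene symbol or several, which no comparison of genes used, 447 were higher and 326 lower in PH70 than in sham livers, or 7.04% of them at an adjusted p below 0.05 by limma. No gene was named for these, apart from a shared Rrm2 probe set given with that gene and a shared histone probe set described under the other observations.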

How the results depend on the processing

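Of 3386 genes called in PH70 against sham livers (1906 higher and 1480 lower), 2179 passed an adjusted p below 0.01 (885 lower) and 968 a fold of at least 1.5 as well (580 higher and 388 lower), and array weights gave 2246 lower. Leaving out each rat in turn gave 2867 to 4059 calls, with 1658 to 2199 higher and 1209 to 1860 lower. Of these calls 56.3% were higher, and with unoperated rats in place of sham 50.4%.

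The count of 413 against PH30 livers was the least stable. It was 2 with only the groups compared, 2420 without rats 95 and 139, 2178 with array weights, 821 after quantile normalization, 630 among the more variable genes alone, and 75 with a fold of 1.5. At an adjusted p below 0.01 limma called 0, while 3180 genes had an unadjusted p below 0.05. Leaving out 1 rat gave 18 (without PH30 rat 98) to 1911 (without PH30 rat 95), and 1406 without PH70 rat 139. Against PH90 livers, 4454 calls became 2374 after quantile normalization, 1502 with a fold of 1.5, and 3966 to 4525 without 1 rat. The cause was not tested. Counts under the remaining alternatives were within 1.5 times those reported.

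Of 125 named genes, 117 were called and 109 of these in every fit without 1 rat. With only both groups fitted, S100a8 alone lost its call (adjusted p = 0.0795). With unoperated rats as the baseline 2 changed sign without passing the test, Hbb-b1 at 0.20 (adjusted p = 0.523) and Jun at -0.042 (adjusted p = 0.915). A further 13 lost their call: Acss2, Cebpa, Cpt1a, Cycs, Egfr, Egr1, Fdft1, Hist1h2bq, Il6st, Inhbc, Mir328b, Pck1 and Tkt. A2m and Alb passed against unoperated rats and not against sham. Of 124 counts of list members called higher or lower, 23 moved by more than 1.5 times with only both groups fitted, 23 without rats 95 and 139, and 48 with unoperated rats.

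No paired analysis was possible because the rat numbers are those of single animals and no number recurs between groups. A filter on low values was not run, since the values are centred, and signal over background is unknown.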

Other observations

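Histone genes, whose products package new DNA, were in none of the gene lists as a class. Of 36 tested, 20 (55.6%) were higher and 1, Hist1h2bq, lower (log2 fold change -0.92 ± 0.21, adjusted p = 0.00236) in PH70 than in sham livers, where 10.5% and 8.15% of all genes were. A probe set left out because it lists Hist1h2bq with other histone genes was higher instead (log2 fold change 1.86 ± 0.30, adjusted p = 7.97e-05 by limma). The fall of Hist1h2bq is uncertain for that reason. H1f5, a linker histone, had values of 0.41, 2.18 and 2.60 in PH70 livers, against -0.47, -0.41 and -0.25 in sham livers (log2 fold change 2.38 ± 0.34, adjusted p = 1.64e-05). H2bc8, a core histone of the nucleosome, had values of 0.75, 2.52 and 3.09 in PH70 livers, against -0.75, -0.20 and 0.01 in sham livers (log2 fold change 2.59 ± 0.36, adjusted p = 1.02e-05). In both genes all PH70 rats, rat 139 included, lay above all sham rats. H2ax, a variant histone that is phosphorylated at DNA breaks, was 7.39-fold higher (log2 fold change 2.89 ± 0.41, adjusted p = 1.46e-05). The class was chosen after the values were seen, and its count is a description.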
